A study of Mus musculus with 2 samples.

Results

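The genes described here are 39 genes that interferons induce, of which 36 had a row among the 19073 features of both count matrices. The list was given by name and not by a limit on a measured value, though earlier results of these data were known when it was made. It was divided by the interferon class a gene is best known for: 26 of the 36 were called type I members (for example Rsad2, Isg15 and the Ifit and Oas families) and 10 were called gamma-type members (Irf1, Cxcl9, Cxcl10, 4 Gbp genes, Igtp, Irgm1 and Iigp1). The division is not exclusive, since Cxcl10 and several others respond to both classes. Mx1, Mx2 and Cxcl11 were not analysed here.

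The cells came from livers of male p16-Tom mice on a C57BL/6 background, heterozygous for p16-CreERT2 and for R26-CAG-LSL-tdTomato-WPRE, in which tamoxifen leaves a permanent tdTomato label in any cell, of whatever type, that is transcribing p16. Both groups received CCl4, a hepatotoxin activated in pericentral hepatocytes, for 4 weeks, and both received tamoxifen. There was no uninjured group. Nucleated, mitochondria-stained cells of fixed liver were sorted into Tom+ (p16high) and Tom- (p16low) hepatocytes, and each group was 1 library. The number of mice behind a library is not given in the sources used here. With 1 library per group no difference could be tested: all intervals below are 95% intervals of counting error only, and a gene was called when its ratio passed a stated fold. RNA was read with pairs of probes per gene, so levels of different genes cannot be ranked against each other, and close relatives such as Ifit3 and Ifit3b may share probe signal.

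The matrices held 23220 Tom- and 16339 Tom+ barcodes with 681279005 and 715333889 UMIs (counted RNA molecules), and 20159 and 13378 cells passed the filters on genes, UMIs and mitochondrial RNA. Clustering without the interferon genes gave 10772 Tom- and 9954 Tom+ hepatocytes, with a median of 32295 and 35287 UMIs. Clusters of few genes that fell short of the marker limit for another type, with 4606 Tom- but 545 Tom+ cells, were set aside. Their type I sum was 1402 and 1306 CPM. Their endothelial, macrophage, other leukocyte and stellate marker sums were all above those of hepatocytes. Macrophage markers stood at 761 against 260 CPM in Tom- and at 575 against 233 CPM in Tom+. All clusters, whatever other markers they carried, held abundant hepatocyte RNA (Alb at 83429.8 to 155906 CPM, the UMIs of a gene or list per 1000000 UMIs), so clusters of other types are called profiles with the markers in question. In the hepatocytes tdTomato was at 73.0 CPM in Tom- and 813 CPM in Tom+, which follows the labels. The 2 libraries shared 372 barcodes among kept cells. The doublet caller marked no cell, so doublets were not removed.

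Interferons are secreted proteins, and those of type I are released by cells that sense viral or misplaced nucleic acid. Type I interferons bind the Ifnar receptor and activate a complex that holds Stat2 and Irf9 and binds the interferon-stimulated response element (ISRE) of target promoters, while interferon gamma, mainly from lymphocytes, binds the Ifngr receptor and acts through the gamma-activated site (GAS). In the liver, hepatocytes carry both receptors and respond with antiviral enzymes, GTPases that attack intracellular microbes, and chemokines that attract T cells.

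The promoters of the members were searched on both strands for the ISRE core, taken as GAAA, any 2 bases and GAAA, and for the GAS letters TTCNNNGAA, in 250 bases before and 50 after each start (RefSeq sequence, build GRCm38.p6). Of the 22 type I members with a promoter entry, 13 held the ISRE core, as did 6 of the 8 gamma-type members, against 3.44% of all 32851 promoters. GAS letters were in 5 and 3 of them, against 8.30% of all promoters. Stretches for the members on which the results turn are shown, 5′ to 3′ on the gene's strand, with every ISRE or GAS match in capitals. Matches can overlap, and an ISRE core on the other strand reads TTTC, any 2 bases and TTTC.
Rsad2, chr12:26456553-26456582, minus strand: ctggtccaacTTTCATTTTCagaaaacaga
Ifit3, chr19:34583363-34583426, plus strand: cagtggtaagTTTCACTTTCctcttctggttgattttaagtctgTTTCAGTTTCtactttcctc
Isg15, chr4:156200865-156200906, minus strand: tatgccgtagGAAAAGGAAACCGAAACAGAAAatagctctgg
Cxcl10, chr5:92349083-92349112, minus strand: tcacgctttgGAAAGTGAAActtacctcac
Gbp2, chr3:142620594-142620623, plus strand: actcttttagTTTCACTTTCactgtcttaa
Cxcl9, chr5:92328080-92328139, minus strand: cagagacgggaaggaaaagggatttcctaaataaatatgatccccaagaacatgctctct
Irf1, chr11:53769914-53769942, plus strand: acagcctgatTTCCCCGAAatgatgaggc
Bst2, chr8:71537577-71537618, minus strand: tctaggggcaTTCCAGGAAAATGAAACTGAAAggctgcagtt
Stat2, chr10:128270266-128270295, plus strand: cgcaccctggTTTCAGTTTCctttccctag
Rsad2, Ifit3, Isg15, Cxcl10, Gbp2 and Stat2 showed the ISRE core alone, Irf1 showed GAS letters alone, and in Bst2 the GAS letters ran into the ISRE core. The Cxcl9 promoter held neither set of letters in this window, and its last 60 bases before the start are shown. The letters did not separate members that were spread over nearly all hepatocytes (Bst2, Stat2) from members held by few cells (Rsad2, Cxcl10).

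In hepatocytes the 26 type I members summed to 1251 CPM in Tom- and 1132 CPM in Tom+, and the 10 gamma-type members to 468 and 446 CPM. Most of these UMIs came from a few genes that nearly all hepatocytes shared. Bst2, which tethers budding virions to the cell surface, stood at 581 CPM (578 to 583) in Tom- and 534 CPM (532 to 537) in Tom+. Iigp1, an immunity-related GTPase, stood at 270 and 250 CPM. Irf7, the factor that amplifies type I interferon production, stood at 161 and 118 CPM. These RNAs were spread over hepatocytes at large: the 100 richest cells held only 3.30% of the Tom- UMIs of Bst2, 4.40% of those of Iigp1 and 5.10% of those of Irf7.

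Other members had a large share of their UMIs in a few cells. Rsad2, which encodes viperin, an enzyme that makes a chain-terminating nucleotide, had 3745 UMIs in Tom- hepatocytes (9.71 CPM) and 4392 in Tom+ (11.1 CPM), but 10 cells held 32.8% of the Tom- UMIs and 48.1% of the Tom+ UMIs, and a single Tom+ cell held 454. Ifit3b, of the family that binds viral RNA ends, had 20.7% and 38.3% of its UMIs in 10 cells. Cxcl10, a chemokine for activated T cells, had 35.5% of its Tom- UMIs in 10 cells. Cxcl9, a chemokine that shares its receptor with Cxcl10, stood at 21.5 and 24.6 CPM, with 22.0% and 23.9% of its UMIs in 10 cells. The intervals treat UMIs as independent, so for genes held this way they are too narrow as a statement about cells.

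The variance of a gene's UMIs over cells, divided by its mean, put a number on this after every hepatocyte had been thinned to 5000 UMIs. Unclumped counts give a ratio near 1, and the median of all genes was 1.02. It was 10.0 for Rsad2, 9.50 for Cxcl9, 4.40 for Cxcl10, 3.92 for Ifit3, 3.06 for Ifit3b, 2.79 for Gbp2 and 2.38 for Cmpk2, a mitochondrial nucleotide kinase. A ratio of at least 1.2 was reached by 13 of 36 members against 4.59% of 10543 genes. At the other end Oas1a, Oas2 and Oas3, which sense double-stranded RNA, had ratios of 1.02, 0.991 and 0.993, but on only 430, 182 and 135 thinned UMIs, from which an even spread cannot be read. Iigp1 and Irf7 were also among the 13, though their UMIs were in many cells.

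Cells with a high and with a low reading were told apart on 14 type I genes (Ifit1, Ifit2, Ifit3, Ifit3b, Oasl1, Oasl2, Irf7, Stat2, Ddx58, Dhx58, Ifih1, Zbp1, Xaf1 and Trim30a), counted in each hepatocyte after thinning to 5000 UMIs. The other 12 type I members and the 10 gamma-type members took no part in it and served as the readout. At this depth 13.3% of 10734 Tom- cells and 19.1% of 9917 Tom+ cells had none of these UMIs, and the means were 2.19 and 1.84. The cells with none were not without this RNA: at full depth they held 332 CPM of the same 14 genes in Tom- and 274 CPM in Tom+. A further 38 and 37 hepatocytes were too shallow. At least 5 UMIs were seen in 8.14% (874 cells) of Tom- and 5.02% (498 cells) of Tom+ hepatocytes, but these cells were mostly the upper end of 1 continuous distribution. Beyond it lay a thin tail: 42 Tom- cells (0.391%, 0.282 to 0.529) and 33 Tom+ cells (0.333%, 0.229 to 0.467) had at least 10 UMIs, and the highest cells had 37 and 66. The plot of the number of cells at each UMI count shows the bulk and the tail. The intervals of the 2 tail shares overlapped.

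**Figure D1:**
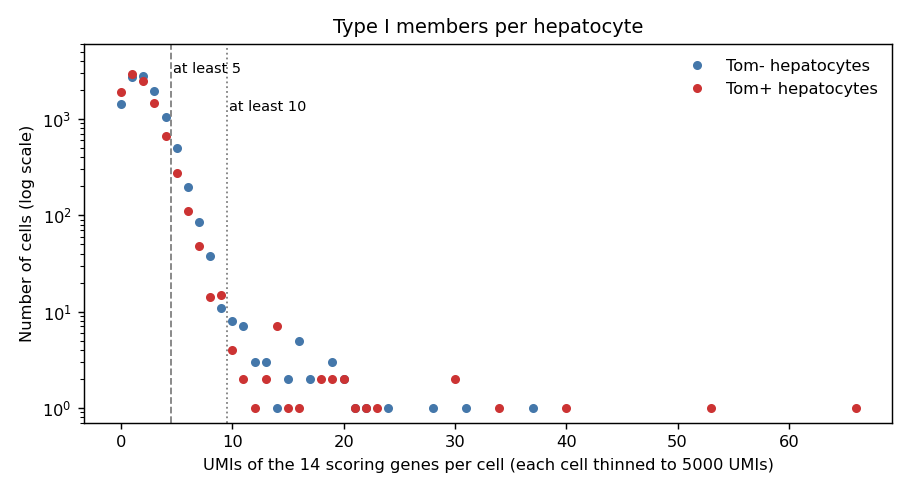
Number of hepatocytes (log axis) by UMIs of the 14 scoring type I genes per cell after thinning to 5000 UMIs, in Tom- and Tom+. Most cells lie below 5 UMIs and the tail reaches 37 UMIs in Tom- and 66 UMIs in Tom+.

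In the tail the readout genes were high too. Against hepatocytes with none, cells with at least 10 UMIs had 4042 against 775 CPM of the 12 readout type I genes in Tom- and 5909 against 724 CPM in Tom+, log2 ratios of 2.38 (2.35 to 2.42) and 3.03 (2.99 to 3.06). The gamma-type members rose as much in sum, by 2.45 (2.40 to 2.50) and 3.03 (2.98 to 3.07). Of these 22 genes, 17 were at least 2-fold higher in both libraries, against 1.71% of 7727 genes tested. Oas2 and Oas3 were too low to be tested, and 11 of the 22 already reached 10 CPM in the cells with none of both libraries, of which 8 passed 2-fold. The median log2 ratio of the tested readout type I genes was 3.0 and 3.68, beside 0.00 and -0.06 for all genes. Cells with at least 5 UMIs gave far smaller ratios of 0.46 and 0.86 for the type I sum and of 0.74 and 1.01 for the gamma-type sum, with 7 of the 22 at least 2-fold higher in both libraries against 0.13% of 7672 genes. In that comparison 17 of the 22 could be tested, and 2 of the 11 at 10 CPM in the cells with none passed 2-fold.

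Rsad2 led the readout, at 1185 CPM in Tom- tail cells against 3.36 CPM in cells with none and at 2100 against 2.68 CPM in Tom+, ratios of 352-fold and 783-fold. Cmpk2 was 74.5-fold and 146-fold higher. Isg15, a ubiquitin-like protein attached to other proteins, was 21.1-fold and 30.0-fold higher. Rsad2 and Cmpk2 were low in the cells with none, whereas Isg15 already stood at 39.0 and 36.7 CPM there.

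Usp18, which removes Isg15 from proteins and damps the receptor, rose 8.25-fold and 11.2-fold. Ifi44 rose 22.3-fold and 62.5-fold, and Oas1a 7.67-fold and 14.5-fold. The members of broad expression moved least. Bst2 was 1.59-fold and 1.81-fold, Irf9 1.40-fold and 1.96-fold, and Ifi35 2.50-fold and 3.44-fold higher. Among the scoring genes, which chose the cells and are given as a description only, Ifit1 was at 137 CPM in Tom- and 222 CPM in Tom+ tail cells, Oasl2 at 80.0 and 114 CPM, Irf7 at 640 and 665 CPM and Stat2 at 153 and 149 CPM.

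Of the gamma-type members, Cxcl10 was 143-fold and 318-fold higher, Gbp2, a guanylate-binding protein of antimicrobial defence, 33.7-fold and 38.3-fold, and Cxcl9 18.9-fold and 15.6-fold. Cxcl10 stood at only 1.48 CPM in the cells with none of either library. These are ratios of pooled UMIs. At the thinned depth Cxcl10 was at 0 in 27 of 42 Tom- and 17 of 33 Tom+ tail cells, and Cxcl9 in 31 and 23. The immunity-related GTPase Igtp was 5.46-fold and 7.90-fold higher. Irf1, the first transcription factor that interferon gamma induces, was 1.76-fold higher in Tom- and 3.30-fold in Tom+. The plot of the ratios sets the chemokines and Gbp2 with the strongest type I genes. Irf1 lies with Bst2 and Irf9 in Tom- but beside Ifi35 in Tom+.

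**Figure D2:**
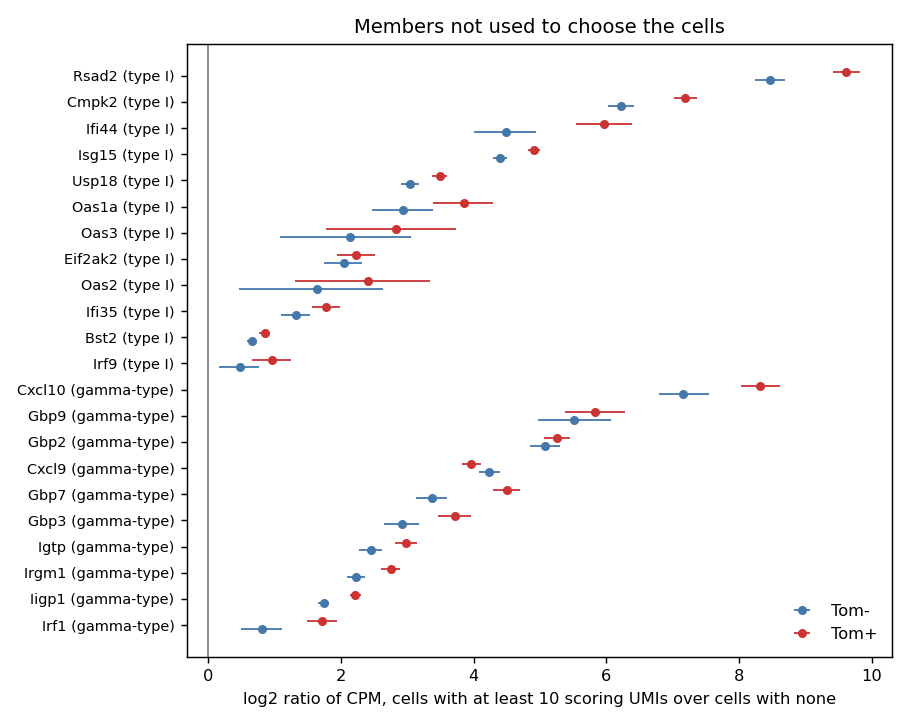
Log2 ratio of CPM in hepatocytes with at least 10 scoring UMIs over hepatocytes with none, for the readout members in each library, with 95% counting intervals. Rsad2 stands highest, at 8.46 in Tom- and 9.61 in Tom+, and the lowest are Irf9 in Tom-, at 0.48, and Bst2 in Tom+, at 0.86.

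The tail was made of few cells with much of the RNA. In the thinned counts the 42 Tom- cells held 52.6% of all Rsad2 UMIs of the hepatocytes and the 33 Tom+ cells held 60.4%, but only 0.556% of the Bst2 UMIs in Tom-. They also varied among themselves: readout type I UMIs ran from 4 to 64 per cell with a median of 18.5 in Tom-, and from 2 to 100 with a median of 23 in Tom+, against medians of 4 and 3 in cells with none.

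Tail cells were compared with the cells with none in depth and in the markers of other cell types. Their median was 37624 UMIs in Tom- and 37566 in Tom+, against 32384 and 36189 in the cells with none. Summed macrophage markers stood at 263 against 236 CPM in Tom- and at 196 against 208 CPM in Tom+. Summed endothelial markers stood at 83.5 against 87.2 CPM and at 58.1 against 68.5 CPM, other leukocyte markers at 5.92 against 3.50 CPM and at 0.754 against 2.46 CPM, and Alb at 111732 against 117145 CPM and at 107036 against 106395 CPM. Summed stellate markers stood at 64.0 against 62.0 CPM in Tom- but at 43.0 against 65.8 CPM in Tom+, and the part of these differences in the ratios was not tested. The tail drew on all 5 position layers, with 5 to 13 cells per layer in Tom- and 5 to 10 in Tom+. All 13 macrophage markers had a UMI in the Tom- tail and 12 of 13 (not Adgre1) in the Tom+ tail, while 11 and 15 of the 16 other leukocyte markers were at 0, among them Cd3g, Nkg7, Ms4a1 and Siglech in both. Of the 75 tail cells, 4 carried a barcode present in both libraries, as did 469 of all 20726 hepatocytes.

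Genes outside the list rose in the tail as well. By the smaller of the 2 library ratios the leading 10 were Tgtp1, Socs1, Cd274, Gbp6, Ddx60, Gvin1, Herc6, Ifi47, Gbp8 and Plekha4, of which Cd274, Ddx60, Gvin1 and Plekha4 were in none of the lists of pathway genes. They were ranked among genes at 10 CPM or more in the tail cells of both libraries. Only Herc6 also reached 10 CPM in the cells with none, at 18.1 and 16.7 CPM, so the others were counted through their level in the tail. Socs1, the feedback inhibitor of Jak kinases, had log2 ratios of 5.21 (4.34 to 6.09) in Tom- and 5.28 (4.59 to 5.95) in Tom+. Cd274, which encodes the T cell inhibitor PD-L1, had 4.20 (3.68 to 4.72) and 5.56 (5.19 to 5.92). In a list of 42 other interferon-induced genes, 31 passed the level filter and 27 were at least 2-fold higher in both libraries, against the 1.71% of 7727 genes. Of these 42, 23 already reached 10 CPM in the cells with none of both libraries, and 19 of the 23 passed 2-fold. None of the 4 receptor genes that passed the filter was 2-fold higher.

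Type I and gamma-type readings were high in sets of cells that overlapped in part. Hepatocytes were divided by 2 readings at 5000 UMIs, the sum of Ifit1, Ifit2, Ifit3, Ifit3b and Rsad2, and Cxcl9 alone, each called high at 3 UMIs or more; the limits were set after the distributions had been seen. High in the type I genes alone were 46 Tom- cells (0.429%, 0.314 to 0.571) and 50 Tom+ cells (0.504%, 0.374 to 0.664). High in Cxcl9 alone were 63 Tom- cells (0.587%, 0.451 to 0.750) and 86 Tom+ cells (0.867%, 0.694 to 1.07). High in both were 6 Tom- and 5 Tom+ cells, 11.5% and 9.09% of the cells high in type I genes and 8.70% and 5.49% of the cells high in Cxcl9. Most cells of either kind were thus not high in the other reading, but Cxcl9 was high in a smaller share, 0.590% and 0.872%, of the cells that were not high in type I genes. Below the limit each kind still held more of the other reading. Cxcl9 stood at 71.8 and 63.0 CPM in cells high in type I genes alone, against 11.3 and 11.2 CPM in cells with neither. In cells high in Cxcl9 alone the 5 type I genes had log2 ratios of 1.24 (Rsad2) to 3.37 (Ifit2) in Tom- and 1.36 (Ifit1) to 2.45 (Ifit2) in Tom+. Of the 75 tail cells above, 56 were of the first kind, 2 of the second and 9 of both; Ifit1, Ifit2, Ifit3 and Ifit3b served in both choices, so the first of these counts is partly built in.

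Genes that took no part in this choice differed between the kinds. Isg15 was at 820 CPM in Tom- and 916 CPM in Tom+ cells high in type I genes alone, log2 4.25 and 4.48 over cells with neither, but at 103 and 86.1 CPM in cells high in Cxcl9 alone, log2 1.26 and 1.07. Oasl1, a repressor of Irf7 translation, had log2 ratios of 4.22 and 4.61 in the first kind, against 0.48 (-0.12 to 1.03) and -0.17 (-0.80 to 0.40) in the second. Usp18 had 2.65 and 3.04 against 0.52 and 0.66. For Stat2 the ratios were 0.40 and 0.64 in the first kind and -0.22 and -0.08 in the second. Each of the 21 type I members that took no part in the choice had a higher ratio in the first kind than in the second in both libraries. The share of all genes with this order was not worked out, so this count and the gamma-type count below are descriptions only.

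Of the 9 gamma-type members that took no part, 6 (Gbp3, Gbp7, Gbp9, Igtp, Irgm1 and Iigp1) also had the higher ratio in the first kind in both libraries, and Gbp2 alone had it in the second. Irgm1 had log2 1.88 and 2.24 in type I cells against 1.28 and 1.17 in Cxcl9 cells. Gbp2 was higher in the cells with Cxcl9 alone, at 286 and 263 CPM (log2 5.56 and 5.70), than in those with type I genes alone, at 105 and 112 CPM (log2 4.11 and 4.46). Igtp was slightly lower in them, with log2 1.78 and 1.82 against 2.07 and 2.39. Irf1 had log2 1.23 against 0.45 in Tom- and 0.74 against 0.79 in Tom+. Cxcl10 did not keep 1 order, with log2 6.25 in Cxcl9 cells against 5.24 in type I cells of Tom- but 4.20 against 6.63 in Tom+.

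Outside the list, the genes that led the Cxcl9 cells included acute-phase genes that did not lead the type I cells. Saa3, an acute-phase serum amyloid, stood at 282 CPM in Tom- and 309 CPM in Tom+ Cxcl9 cells, log2 4.14 (4.02 to 4.25) and 3.90 (3.81 to 4.00). In type I cells its ratio was -0.86 (-1.64 to -0.18) in Tom- and 0.84 (0.51 to 1.15) in Tom+. Ubd, a ubiquitin-like protein induced by interferon gamma together with TNF, had log2 6.91 and 4.07 in the Cxcl9 cells, and Socs1 had 5.52 and 4.31. Both genes stood at 2.77 CPM or lower in the cells with neither. In type I cells Socs1 had 3.45 and 4.05, and the Tom+ intervals of the 2 kinds overlapped. Tgtp1, Cd274, Gbp6 and Ifi47 were among the leading genes of both kinds. Macrophage markers stood at 252 CPM in Tom- Cxcl9 cells against 260 CPM in cells with neither, and at 352 against 232 CPM in Tom+. Stellate markers stood at 60.8 against 65.3 CPM in Tom- and at 108 against 70.8 CPM in Tom+, and the part of these Tom+ excesses in the values was not tested.

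**Figure D3:**
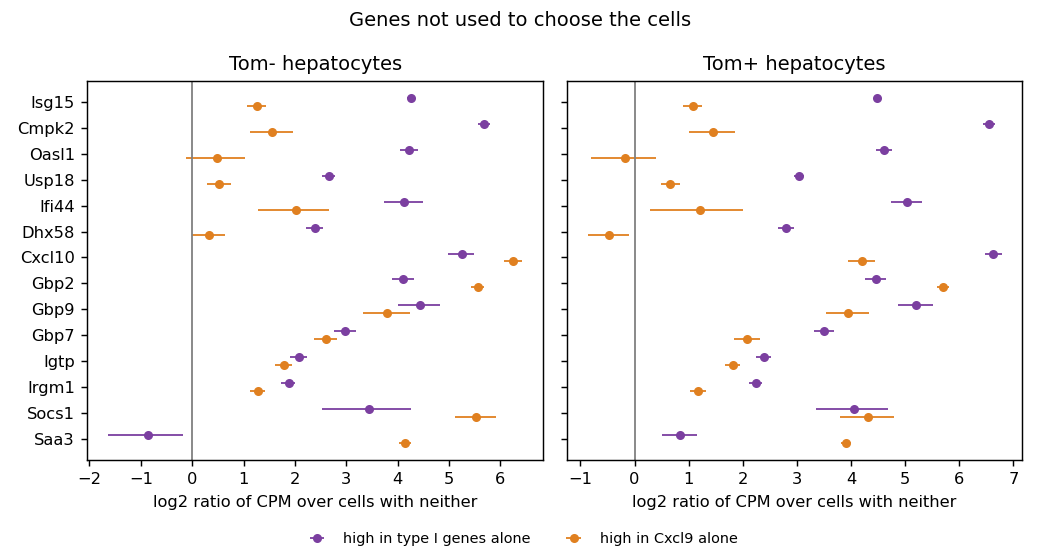
Log2 ratio of CPM over hepatocytes with neither reading high, for 14 genes that did not choose the cells, in cells high in type I genes alone (purple) and in Cxcl9 alone (orange), with 95% counting intervals. Isg15, Oasl1 and Usp18 stand apart on the purple side in both libraries, Gbp2 and Saa3 on the orange side.

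Position in the lobule was read from landmark genes, none of them a member, as 5 layers of equal cell number from the portal end (layer 1) to the central end (layer 5); 9.58% of hepatocytes lay within 0.05 score units of a boundary. Glul, which marks hepatocytes next to the central vein, went from 6.03 CPM in layer 1 to 293 CPM in layer 5 of Tom-. The libraries filled the layers unequally, with 27.2% of Tom- but 12.2% of Tom+ hepatocytes in layer 1 and 9.76% and 31.1% in layer 5. As sums the members had little gradient: type I was at 1163 CPM in layer 1 and 1260 in layer 5 of Tom-, and at 1092 and 1135 in Tom+, log2 ratios of 0.12 (0.10 to 0.13) and 0.06 (0.04 to 0.07). The gamma-type ratios were 0.22 (0.20 to 0.25) and 0.06 (0.03 to 0.08). In hepatocytes without any UMI of nonparenchymal markers the Tom+ ratios turned to -0.05 and -0.15.

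Few members passed the limit for a gradient. Past 1.5-fold in both libraries were Usp18, Cxcl9 and Igtp, all higher at the central end, which is 3 of the 20 members tested, against 9.2% of 7904 genes higher; none of the 20 was lower, against 4.72% of genes. The median log2 ratio of the 20 was 0.18 and 0.19, beside 0.16 and 0.21 for all genes. Cxcl9 went from 11.8 to 41.2 CPM in Tom- and from 15.6 to 39.7 CPM in Tom+, log2 1.81 (1.69 to 1.92) and 1.35 (1.24 to 1.45). Usp18 rose at each step in Tom-, from 38.9 to 69.3 CPM, and from 41.6 to 72.7 CPM over the ends in Tom+. Igtp rose from 29.2 to 58.9 CPM and from 31.8 to 48.9 CPM. That each of these 3 genes kept its direction from 1 library to the other follows from the limit, which had to be passed in both.

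Irf1 stood at log2 ratios of 0.58 and 0.59, just short of 1.5-fold in Tom- and just past it in Tom+. Gbp9 (1.41 and 0.92) and Oas3 (1.07 and 0.83) had higher ratios, on 223 and 170 UMIs over both ends in Tom-, but Gbp9 in Tom+ turned to -0.10 in hepatocytes without nonparenchymal marker UMIs. Isg15 had 0.38 and 0.26. Bst2, at 0.23 and 0.18, was near the median of all genes, 0.16 and 0.21. The portal end was higher for Irf7, which went from 166 to 117 CPM in Tom- and from 139 to 90.5 CPM in Tom+, log2 -0.50 (-0.55 to -0.45) and -0.62 (-0.67 to -0.58). Gbp3 was portal as well, at -0.54 and -0.69, as were the RNA sensor Ifih1 (-0.26 and -0.33), its relative Dhx58 (-0.29 and -0.21), Oasl1 (-0.32 and -0.41) and Stat2 (-0.25 and -0.12). The plot of levels by layer shows both directions.

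**Figure D4:**
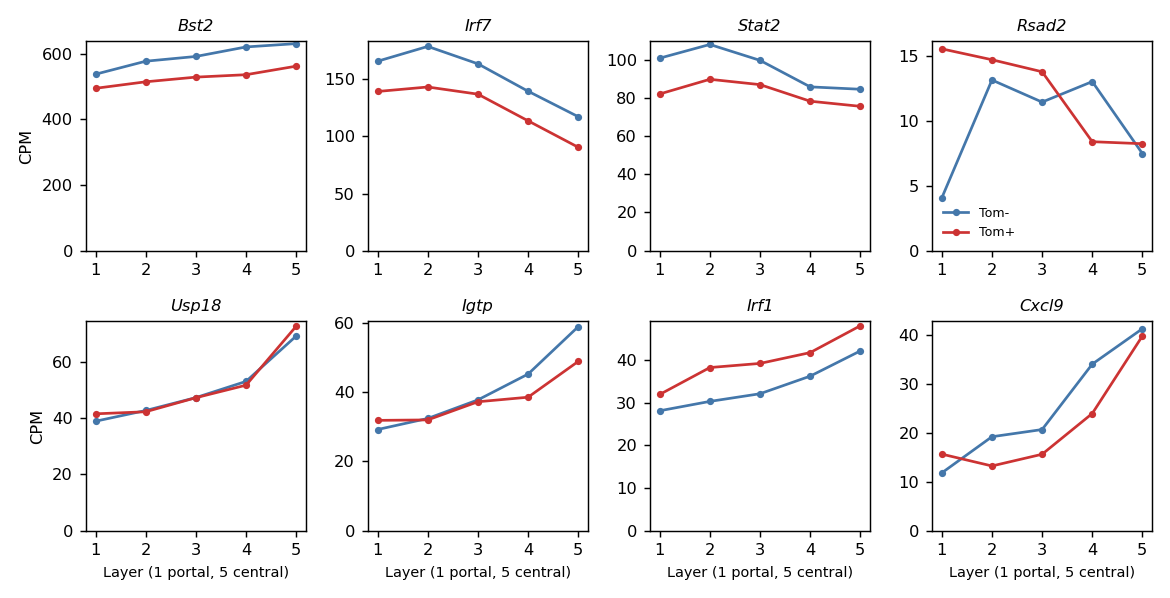
Level (CPM) of members in the 5 layers from the portal to the central end, in Tom- and Tom+, drawn without intervals. Cxcl9, Usp18 and Igtp are highest in layer 5 in both libraries, and Irf7 is lowest there.

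Rsad2, Ifit2, Ifit3 and Ifit3b had no stable position. Rsad2 was higher at the central end in Tom- (log2 0.88, 0.65 to 1.11) and lower in Tom+ (-0.92, -1.05 to -0.78). In layer 1 of Tom+ 5 cells held 84.9% of the Rsad2 UMIs, and in layer 5 of Tom- 5 cells held 64.4%. Without the tail cells the ratios were -0.26 and 0.52. Ifit3 (0.87 and -0.62), Ifit3b (0.95 and -1.08) and Ifit2 (0.31 and -0.94) also differed in sign between libraries, though Ifit2 in Tom- was within counting error of no gradient. Without the tail cells they were all positive in Tom+, at 0.60, 0.71 and 0.25. Cxcl10 (1.82 and 0.16), Gbp2 (0.72 and 0.37), Ifit1 (0.72 and 0.15) and Oasl2 (0.26 and 0.12) had positive ratios in both, with Cxcl10, Ifit1 and Oasl2 in Tom+ within counting error of no gradient. For Cxcl10, too, 5 cells held 59.4% of the UMIs in layer 5 of Tom- and 77.7% in layer 1 of Tom+. In hepatocytes without nonparenchymal marker UMIs the Tom+ ratio turned to -0.86 for Gbp2 and to -0.029 for Isg15. Oas1a differed by -0.04 and -0.07, also within counting error.

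Both kinds of responding cell were counted by layer, and the difference between them was not tested. Cells with high Cxcl9 alone made up 0.205% (0.0753 to 0.446) of layer 1 and 1.53% (0.874 to 2.47) of layer 5 in Tom-, and 0.247% (0.0510 to 0.720) and 1.55% (1.15 to 2.05) in Tom+. Their share was higher at each step in Tom-, though the intervals of neighbouring layers overlapped. Cells high in type I genes alone went from 0.239% to 0.286% in Tom- and from 0.329% to 0.517% in Tom+, inside the counting intervals of each other, with their highest shares, 0.797% and 0.648%, in layer 4. Layers 4 and 5 held 32.6% and 66.0% of the type I cells and 46.0% and 81.4% of the Cxcl9 cells, beside 23.6% and 57.4% of the cells with neither. Macrophage markers in hepatocytes moved along the layers too, from 186 CPM in layer 1 to 341 in layer 4 and 286 in layer 5 of Tom-, and from 149 to 291 and 224 CPM in Tom+, and their part in the gradients was not tested.

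Outside hepatocytes, profiles with immune markers carried more type I RNA, at 1844 CPM in Tom- and 1604 CPM in Tom+, log2 0.56 and 0.50 over hepatocytes. Profiles with stellate markers had 0.56 and 0.48, and those with endothelial markers 0.24 and 0.26. Gamma-type sums differed less, by 0.20 and 0.11 in the immune profiles. Of the 36 members 31 could be tested in the immune profiles, and 11 were at least 2-fold higher than in hepatocytes of both libraries, against 5.75% of 8151 genes. Of the 20 members at 10 CPM or more in hepatocytes of both libraries, only 2 (Xaf1 and Zbp1) were among these 11. The count thus rests on members that hepatocytes carry at low levels. Stellate profiles had 7 of 29 (6.93% of all genes) and endothelial profiles 5 of 27 (3.22%), and of these calls 2 and 0 were among the same 20 members. The stellate profiles also held macrophage markers, at 1666 and 1276 CPM, so their values are not those of stellate cells alone.

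Oas2 and Oas3 had the highest ratios of all members in the immune profiles. Oas2 stood at 49.3 CPM in Tom- and 42.1 CPM in Tom+ immune profiles against 1.66 and 1.43 CPM in hepatocytes, log2 4.89 and 4.88. Oas3 had 3.79 and 3.78, Ifit2 3.13 and 3.10, Trim30a 2.94 and 3.0, Oasl2 2.87 and 2.86, and Oas1a 2.77 and 3.09. Oasl1 had only 0.96 and 0.86. Apart from Oasl1, these members were all at 6.23 CPM or lower in Tom- hepatocytes. The stellate profiles had ratios of like size, 4.66 and 4.63 for Oas2, 3.11 and 2.95 for Oasl2, and 2.55 and 2.82 for Oas1a. The gamma-type GTPases varied: Igtp differed by -0.06 and -0.05 and Iigp1 by -0.04 and -0.04, while Irgm1 had 0.31 and 0.19, Gbp7 0.80 and 0.66, Gbp3 0.85 and 0.86, Gbp2 1.41 and 1.02 and Gbp9 2.20 and 1.81. Cxcl9 had 0.59 and 0.15, and Cxcl10 1.41 and 0.45. Stat2 (0.01 and 0.13), Irf9 (0.06 and 0.20) and Usp18 (0.17 and 0.04) were near the hepatocyte level, as were Bst2 (0.17 and 0.12) and Irf1 (0.21 and 0.10), whereas Irf7 had 0.89 and 0.85, Isg15 0.54 and 0.45, and Ifit1 0.81 and 0.75.

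Kept cells that reached the thinned depth were ordered by their macrophage marker UMIs at that depth, and shallower cells were left out. Levels in each bin were taken at full depth. The sums were higher with more marker UMIs. From cells with none to cells with 50 or more, the type I sum went from 1258 to 4175 CPM in Tom- and from 1140 to 3632 CPM in Tom+, and Oas2 in Tom- went from 2.24 to 296 CPM. Irf7 rose from 159 to 816 CPM in Tom-, but Iigp1 went from 269 to 237 CPM. The gamma-type sum went from 468 to 916 CPM in Tom- and from 439 to 694 CPM in Tom+, and Gbp2 from 9.51 to 94.7 CPM and from 7.16 to 55.7 CPM. Cxcl9 went from 22.8 to 128 CPM in Tom- and in Tom+ from 20.2 to 43.0 CPM in cells with 20 to 49 marker UMIs, while the last Tom+ bin had only 8 UMIs of it (10.1 CPM). The last bin held 252 Tom- and 67 Tom+ cells with a median of only 10112 and 7416 UMIs, and Alb was still at 86859 and 81985 CPM. In single-cell profiles that mix RNA of several types, a higher level in a type and more of that type cannot be told apart.

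Between Tom+ and Tom- hepatocytes no member passed 1.5-fold. Of 36 members 21 could be tested, and 0 were higher (against 1.51% of 7831 genes) and 0 lower (0.46%); without a minimum level, too, none of the members passed. The type I sum was lower in Tom+ by a log2 ratio of -0.14 (-0.15 to -0.14) and the gamma-type sum by -0.07 (-0.08 to -0.06). The medians over tested members stood in the other order, at -0.06 for type I and -0.11 for gamma-type. The median ratio of the 21 was -0.06, with 14 lower and 7 higher, beside 0.03 for all genes, of which 40.2% were lower. The type I sum was lower in Tom+ in each of the 5 layers, by -0.09 to -0.19. The median over all tested members was -0.04 in layer 1, with 12 of 22 lower, beside -0.03 for all genes. In the other layers it lay between -0.10 and -0.20, beside -0.02 to 0.02 for all genes. Position was not matched further inside a layer: Glul in layer 5 stood at 293 CPM in Tom- and 362 CPM in Tom+. Gamma-type was at 0.02 in layer 1 and between -0.07 and -0.19 in the others. A single hepatocyte cluster was nearly all Tom+ (1534 of its 1582 cells), and without it the ratios of the sums were -0.13 and -0.051. With the clusters of few genes kept, which were mostly Tom-, they were -0.16 and -0.07.

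The members lower in Tom+ were led by Irf7, at 118 against 161 CPM (log2 -0.44, -0.46 to -0.43), and it was lower in all 5 layers, by -0.25 to -0.37. Oas1a was at 3.44 against 4.66 CPM (-0.44), Ifit2 at 1.21 against 1.56 CPM (-0.37), Irgm1, which regulates the other GTPases of its family, at 52.8 against 65.6 CPM (-0.31), and Oas3 at 1.18 against 1.46 CPM (-0.31). Stat2 was at 81.1 against 99.0 CPM (-0.29). Oasl2 (-0.20), Bst2 (-0.12) and Gbp2 (-0.07) were lower as well, though Gbp2 turned to 0.11 without the cells of at least 5 UMIs. Irgm1, Stat2 and Bst2 were lower in every layer. Isg15 was at 46.7 against 47.6 CPM, within counting error.

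Higher in Tom+ were Irf1, at 41.4 against 32.0 CPM (log2 0.37, 0.34 to 0.41), Usp18 (0.23), Cxcl10 (0.20), Cxcl9 (0.20), Rsad2 (0.19) and Igtp (0.10). Irf1 was higher in all 5 layers, by 0.18 to 0.34. Usp18 was not: within layers it lay between -0.04 and 0.09. Its intervals were clear of no difference in layer 1 (0.02 to 0.17) and layer 5 (0.005 to 0.14). Tom+ had more of the central cells in which Usp18 is high, and the part of this in its ratio was not tested. Cxcl9 was higher in layer 1 alone, by 0.41, and lay between -0.05 and -0.54 in the others. Igtp likewise was at 0.13 in layer 1 and between -0.02 and -0.27 in the others. Cxcl10 and Rsad2 differed in sign between layers, from -1.48 to 1.40 and from -0.63 to 1.94. Rsad2 turned to -0.16 without the tail cells and Cxcl10 to -0.03, and Cxcl9 to -0.08 in hepatocytes without nonparenchymal marker UMIs. Ifit1 stood at 0.07, within counting error.

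**Figure D5:**
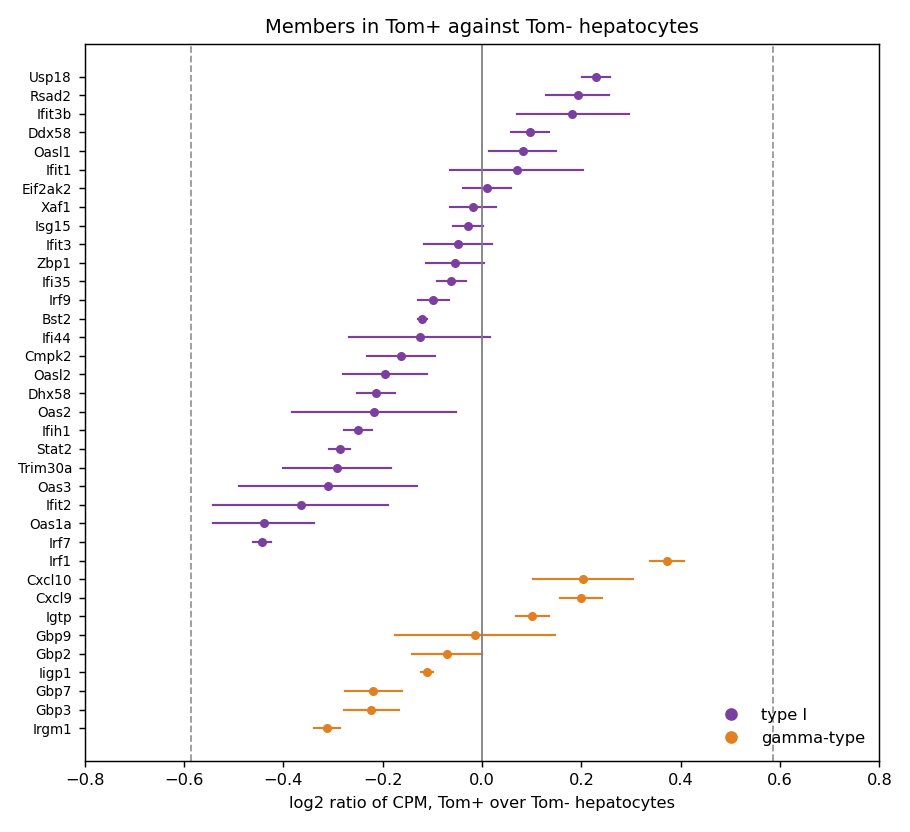
Log2 ratio of CPM in Tom+ over Tom- hepatocytes for the 36 members, with 95% counting intervals. All lie inside the 1.5-fold limits, with Irf1 highest at 0.37 and Irf7 and Oas1a lowest at -0.44.

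The pathway upstream was measured in the same cells. The 17 interferon genes in the matrices had 26 UMIs in all Tom- and 41 in all Tom+ hepatocytes, and 7 of them had none in either library, which allows up to 0.00778 and 0.00758 CPM each. Over all kept cells Ifng had 8 and 7 UMIs, and Ifnb1 had 0 and 10. Of the receptors, Ifnar1 stood at 44.5 and 43.3 CPM and Ifnar2 at 87.2 and 85.9 CPM, both near equal. Ifngr1, which binds interferon gamma, stood at 21.5 and 28.8 CPM (log2 0.42, 0.38 to 0.46), and Ifngr2 at 14.6 and 17.3 CPM (0.25, 0.20 to 0.30). Ifnlr1, the receptor of type III interferons, had 26 and 54 UMIs.

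None of the receptors, sensing genes and other induced genes tested passed 1.5-fold between Tom+ and Tom- hepatocytes: 4 of 6 receptors, 4 of 9 sensing genes and 23 of 42 other induced genes could be tested. Their median log2 ratios were 0.11, -0.10 and -0.09. The signalling suppressor Socs3 was too low for the filter, at 2.17 and 4.35 CPM. Its log2 ratio of 1.00 (0.88 to 1.12) was noticed after the values were seen. Other genes below the filter had large ratios of either sign. Ifnlr1 had 1.02 (0.32 to 1.75), Gbp5 -1.03 (-1.37 to -0.70), Gbp4 -0.86 (-1.09 to -0.63) and Ifi209 -0.73 (-1.05 to -0.40).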

How the data were processed

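Single-cell RNA of fixed liver cells was measured in 2 libraries, Tom- and Tom+. The authors deposited raw UMI counts per gene and barcode, made with Cell Ranger 7.2.0 on mm10 per the labels. Cells with 2000 to 10000 genes, at most 100000 UMIs and a mitochondrial fraction of at most 0.05 were kept, clustered (scanpy 1.11.5, Leiden resolution 0.8, 2000 variable genes without interferon genes) and named from markers. Counts were summed per library and class as CPM. Exact Poisson, conditional binomial and Clopper-Pearson intervals (95%) cover counting error only. A ratio needed 10 CPM in either sum and 20 UMIs. The fold was 1.5 for Tom and position and 2 elsewhere. The thinned depth was 5000 UMIs, and the limit of 5 scoring UMIs was also tried as 3 and as 10, on the last of which the text rests. Nonparenchymal marker UMIs per cell, used to leave out or order cells, were counted at the thinned depth too. Members named were the 5 highest and 5 lowest ratios per comparison and 11 set genes. Members and lists were chosen with earlier results of these data known. The interval code was tested on simulated data. Left-out and kept clusters, cells with at least 10 UMIs and the limits for type I and Cxcl9 cells were added after seeing the data.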

Additional observations from a re-analysis of the deposited data

Results flagged for a closer look

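Rsad2, Ifit3, Ifit3b and Cmpk2 had central over portal ratios of opposite sign in the 2 libraries. The log2 ratios were 0.88 in Tom- and -0.92 in Tom+ for Rsad2, 0.87 and -0.62 for Ifit3, 0.95 and -1.08 for Ifit3b, and 0.25 and -0.47 for Cmpk2. Without cells of at least 10 scoring UMIs the ratios became -0.26 and 0.52 for Rsad2 and -0.19 and 0.30 for Cmpk2, and in Tom+ 0.60 for Ifit3 and 0.71 for Ifit3b. The difference between libraries was not tested, since each group is 1 library.

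Barcodes under the minimum of 2000 genes, which no comparison used, carried more member RNA relative to their depth than hepatocytes. The 2663 such Tom- barcodes had 2566 CPM of type I members against 1251 CPM in hepatocytes and 660 against 468 CPM of gamma-type members. The 1682 Tom+ barcodes had 2752 against 1132 CPM and 654 against 446 CPM.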

How the results depend on the processing

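No paired analysis was possible because Tom- and Tom+ are 1 library each, and no replicate was there to leave out. Of 149 alternative values for the comparisons, 72 stayed within counting error of the value in the text, 75 moved beyond it and 2 changed sign. In all that follows values are log2 ratios unless given as percentages, Tom- comes before Tom+, and the cause of a move was not tested.

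Tom+ over Tom-: the type I sum was -0.13 by the mean over cells, -0.18 by median-of-ratios scaling, -0.15 with equal weight to each layer, -0.15 without cells of at least 5 UMIs, -0.13 without clusters nearly all of 1 library and -0.16 with the clusters of few genes kept. The gamma-type sum was -0.10 by median-of-ratios scaling, -0.10 with equal layers, -0.093 in hepatocytes without nonparenchymal marker UMIs and -0.051 without the clusters of 1 library. No member passed the fold under any of these settings.

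Central over portal: with members among the clustering genes the type I sum was 0.14 and 0.028. Without nonparenchymal marker UMIs type I was 0.089 and -0.050 and gamma-type 0.40 and -0.15, reversed in Tom+ for both. With position from landmark UMI shares type I was 0.088 and 0.027 and gamma-type 0.20 and 0.011. With 3 layers type I was 0.075 and 0.035 and gamma-type 0.12 and 0.019. Without cells of at least 10 UMIs type I was 0.080 and 0.10 and gamma-type 0.18 and 0.091.

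Responding cells: the share was 35.8% and 26.5% at a limit of 3 UMIs, 0.391% and 0.333% at 10, 35.0% and 31.7% with scoring and readout genes swapped, 2.86% and 1.81% at 10 UMIs of 10000, and 7.04% in Tom- without marker UMIs. The readout type I ratio was 0.63 and 1.04 with members among the clustering genes, 0.49 and 0.91 without the 10% highest doublet scores, 0.54 and 0.93 without marker UMIs, 0.15 and 0.26 at 3 UMIs, 2.38 and 3.03 at 10, and 0.25 and 0.38 when swapped. The gamma-type ratio was 0.83 and 1.15, 0.78 and 1.05, 0.60 and 1.10, 0.27 and 0.37, 2.45 and 3.03, and 0.29 and 0.33 under the same 6 settings. Type I cells alone were 0.764% and 0.817% at a limit of 2 UMIs and 0.307% and 0.363% at 5. Cxcl9 cells alone were 0.978% and 1.30% at 2 and 0.345% and 0.534% at 5.

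Other profiles over hepatocytes, type I: 0.42 and 0.39 at resolution 1.2, 0.38 and 0.33 with members among the clustering genes, 0.41 and 0.36 with at least 3000 genes, and 0.49 and 0.43 without the highest doublet scores.

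Of 252 member values 151 stayed, 78 moved and 23 reversed. Without cells of at least 5 UMIs, Tom+ over Tom- became -0.34 for Rsad2, -0.35 for Ifit3b and 0.11 for Gbp2. Without cells of at least 10 UMIs it became -0.16 for Rsad2, -0.23 for Ifit3b and -0.031 for Cxcl10, and without marker UMIs -0.076 for Cxcl9. Central over portal without cells of at least 10 UMIs became -0.26 for Rsad2 and -0.19 for Cmpk2 in Tom-, and in Tom+ 0.52 for Rsad2, 0.25 for Ifit2, 0.60 for Ifit3, 0.71 for Ifit3b and 0.30 for Cmpk2. Without marker UMIs it became -1.18 for Rsad2, -0.0067 for Ifit3, -0.13 for Cmpk2, 0.066 for Iigp1 and -0.13 for Trim30a in Tom-, and -0.029 for Isg15, -0.86 for Gbp2, -0.10 for Gbp9 and -0.0051 for Eif2ak2 in Tom+. The depth limits members below 10 CPM most: their gradients rest on few UMIs.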
